A study of Mus musculus with 6 samples.

Results

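The small nucleolar RNAs (snoRNAs) described here lie inside the genes of Nop56, Nop58, Ncl and Dkc1, which encode proteins of snoRNA particles or of the nucleolus. The members are the features of the count tables that match a GENCODE M21 gene of type snoRNA at the same start and end and lie within 1 of the 4 host genes on the host's strand. There were 13 of them among 443 listed snoRNA features and 1823 listed features in all, and they are all 13 snoRNAs that GENCODE M21 places in these hosts. Nop56 holds 5, Nop58 holds 4, Ncl holds 3 and Dkc1 holds 1.

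The libraries were made from small RNA of mouse bone marrow cells, named in the series' design text as lineage-negative (Lin-) cells, the fraction depleted of mature blood cells. There were 3 libraries of genotype Mat KO, here KO and taken as a mutation inherited from the mother, and 3 of wildtype (WT). The series' title names the imprinted Dlk1-Gtl2 locus and rRNA modification. The deleted segment, the strain, the age and whether a library is 1 animal are given in neither the labels nor the design text, so every p-value reflects only how these 6 libraries scatter, and that scatter may be technical. The libraries held 45398303 to 53299322 reads. Reads of DQ267100, a snoRNA of the Dlk1-Gtl2 locus, were 2, 0 and 1 in KO libraries against 59, 51 and 52 in WT. Cell markers could be read only through miRNA features. The summed level in reads scaled to a common library total of 1e+06 (counts per 1e+06, CPM) was 61.4 to 81.0 in KO libraries against 40.1 to 93.6 in WT for 6 primitive haematopoietic miRNAs, with Mir125b-1 at 0 in KO replicate 1. It was 15.5 to 23.2 and 9.68 to 21.1 CPM for 2 myeloid miRNAs, and 0.846 to 1.68 and 0.657 to 1.18 CPM for 3 erythroid ones, of which Mir451a was at 0 in every library. Mir150, a B lymphoid miRNA, had 4.002 to 6.09 CPM in KO libraries against 0.694 to 3.19 CPM in WT, and Mir126a of the primitive list had 5.65 to 17.4 and 0.544 to 5.397 CPM. Mir125a, also of the primitive list, had 0.275 to 0.482 and 0.0563 to 0.220 CPM. These 3 were higher in all KO libraries than in any WT library, and their part in the values below was not tested.

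snoRNAs guide chemical modification of ribosomal RNA. C/D box snoRNAs carry a C box near the 5′ end and a D box near the 3′ end, and the stretch just before a D box pairs with the target, which is then 2′-O-methylated by fibrillarin. H/ACA box snoRNAs end in an ACA motif and guide the conversion of uridine to pseudouridine. Most are cut from the introns of host genes after splicing. Nop56 and Nop58 are core proteins of the C/D particle, Dkc1 (dyskerin) is the pseudouridine synthase of the H/ACA particle, and Ncl (nucleolin) is an abundant nucleolar protein of ribosome synthesis. In these 4 genes introns thus hold annotated snoRNAs, while the exons encode a protein of snoRNA particles or of the nucleolus. In bulk RNA, fewer cells making an RNA and less RNA per cell cannot be told apart.

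All 13 lie in introns of the host's principal transcript (GRCm38 throughout). In Nop56 (chromosome 2, 130274430 to 130279313, plus strand) they sit in introns 3, 5, 8, 9 and 10 of 11: Snord110 (130275506 to 130275573), Gm24451 (130276237 to 130276369), Gm23187 (130277195 to 130277280), Gm23650 (130277697 to 130277766) and Snord57 (130278016 to 130278087). In Nop58 (chromosome 1, 59684971 to 59719044, plus strand) they sit in introns 2, 3, 8 and 9 of 12: Snord70 (59691934 to 59692020), Gm26293 (59692509 to 59692592), Gm26287 (59704258 to 59704338) and Snord11 (59704790 to 59704873). In Ncl (chromosome 1, 86344719 to 86359400, minus strand) they sit in introns 5, 11 and 12 of 13: Snord82 (86356261 to 86356330), Gm24148 (86352008 to 86352087) and Snora75 (86351169 to 86351301). In Dkc1 (chromosome X, 75095854 to 75109777, plus strand) Gm25520 (75101409 to 75101526) sits in intron 8 of 14. By length 10 are of C/D size (68 to 87 nt, set at up to 110 nt) and 3 are of H/ACA size: Gm24451 and Snora75 with 133 nt and Gm25520 with 118 nt. Symbols starting with Gm are provisional, and no other name is given to them here.

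The sequences of the C/D-size members bear on the series' subject because several hold a stretch complementary to 18S rRNA. Each was compared with an 18S copy of 1849 nt on chromosome 17 (39846353 to 39848201), read as the reverse complement of the GENCODE rRNA transcript CT010467.1, which is annotated on the minus strand. RefSeq lists a pseudogene of the same length, Rn18s-rs5, 1 nt further on, and positions below count from 1 in this copy and need not equal those of mature 18S rRNA. The search took runs of at least 10 Watson-Crick pairs that end 0 or 1 nt before a CTGA, the letters of a D box, on the snoRNA's own strand. Such a run was found in 6 of the 10, and in 38 of all 506 annotated snoRNAs of up to 110 nt (7.51%). These are 4 of the snoRNAs, 5′ to 3′ in DNA letters from GENCODE transcripts, with the run in capitals.
Snord82: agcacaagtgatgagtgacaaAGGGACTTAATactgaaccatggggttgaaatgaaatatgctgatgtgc
Snord57: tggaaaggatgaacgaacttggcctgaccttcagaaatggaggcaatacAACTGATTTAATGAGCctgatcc
Snord110: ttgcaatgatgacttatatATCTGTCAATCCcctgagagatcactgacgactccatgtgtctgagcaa
Gm24148: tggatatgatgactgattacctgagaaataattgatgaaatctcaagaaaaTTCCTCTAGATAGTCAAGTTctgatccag

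The run was 11 nt in Snord82, 16 nt in Snord57, 12 nt in Snord110 and 20 nt in Gm24148, and each occurs once in the antisense of the copy. C/D snoRNAs are known to direct the methyl group to the nucleotide paired with the fifth base before the D box. By that count the paired position of the copy was 1685 (an A) for Snord82, 99 (an A) for Snord57, 1295 (a U in RNA) for Snord110 and 1784 (a U in RNA) for Gm24148. A match of letters does not show that the site is modified, and no modification was measured in these files. In Snord57 and Gm24148 the run stands before the CTGA nearest the 3′ end, and in Snord82 and Snord110 before an internal CTGA.

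The 4 snoRNAs of Nop58 form 2 pairs that share a single 18S-complementary stretch. They are shown with the longest stretch common to all 4, GTCACTACC, in capitals.
Snord70: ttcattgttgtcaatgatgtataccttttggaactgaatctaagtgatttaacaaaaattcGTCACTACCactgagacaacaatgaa
Gm26293: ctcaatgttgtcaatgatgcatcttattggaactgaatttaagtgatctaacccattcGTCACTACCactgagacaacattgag
Gm26287: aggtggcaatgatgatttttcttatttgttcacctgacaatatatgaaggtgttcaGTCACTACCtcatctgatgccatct
Snord11: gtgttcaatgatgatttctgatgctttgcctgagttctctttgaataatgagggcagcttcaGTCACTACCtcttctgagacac

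This 9-nt stretch pairs with positions 516 to 524 of the 18S copy, its only site there. It occurs in these 4 and in no other of the 506 annotated snoRNAs of up to 110 nt, or 0.791% of them. In Snord70 and Gm26293 the complementary run extends to 12 nt (TTCGTCACTACC) and ends 1 nt before the CTGA, so that the fifth base before the box pairs with position 519, an A. In Gm26287 and Snord11 it is 11 nt (GTCACTACCTC) and ends 2 nt before the CTGA, so that the fifth base pairs with position 516, a G. Snord70 and Gm26293 are 83.9% identical, Gm26287 and Snord11 are 65.5% identical, and in each case the partner is the closest of all annotated snoRNAs. The members of a pair lie in neighbouring introns. Reads that cover only the shared part of Snord70 and Gm26293, 25 nt long, could not be told apart, so the counts within that pair are less certain than its sum.

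Gm23187 and Gm23650 held no run of the searched kind with this copy, which says nothing about other targets. TGATG, the core letters of a C box, was found in the first 25 nt of 9 of the 10 (361 of the 506 annotated, 71.3%), and Snord57 lacked these letters. CTGA stood in the last 25 nt of all 10 (82.8% of those annotated). Among the H/ACA-size members, an ACA ended 3 nt from the 3′ end in Gm24451 and Snora75. In Gm25520 no ACA ended within 10 nt of the annotated 3′ end, against 64.0% of the 1001 annotated snoRNAs of over 110 nt that have one. The sequences of Gm24451 and Gm25520, with the ACA of the former in capitals, show the difference.
Gm24451: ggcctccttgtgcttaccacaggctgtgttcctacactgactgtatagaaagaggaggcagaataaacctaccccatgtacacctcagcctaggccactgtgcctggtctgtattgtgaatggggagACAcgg
Gm25520: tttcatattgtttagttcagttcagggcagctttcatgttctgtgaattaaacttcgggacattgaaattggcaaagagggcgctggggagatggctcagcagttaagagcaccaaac

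Together the 13 snoRNAs took 2.99% ± 0.148 of all reads in KO libraries against 3.09% ± 0.237 in WT (SD, n = 3 each). Their levels spanned 9.06e+04-fold per nucleotide of feature length, from Snord82 to Gm25520. CPM here is the count over the library's total, and the order of the snoRNAs and the ratios between them are given after division by feature length, while shares are shares of reads. All 13 passed the filter on low counts of the test below.

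**Figure D1:**
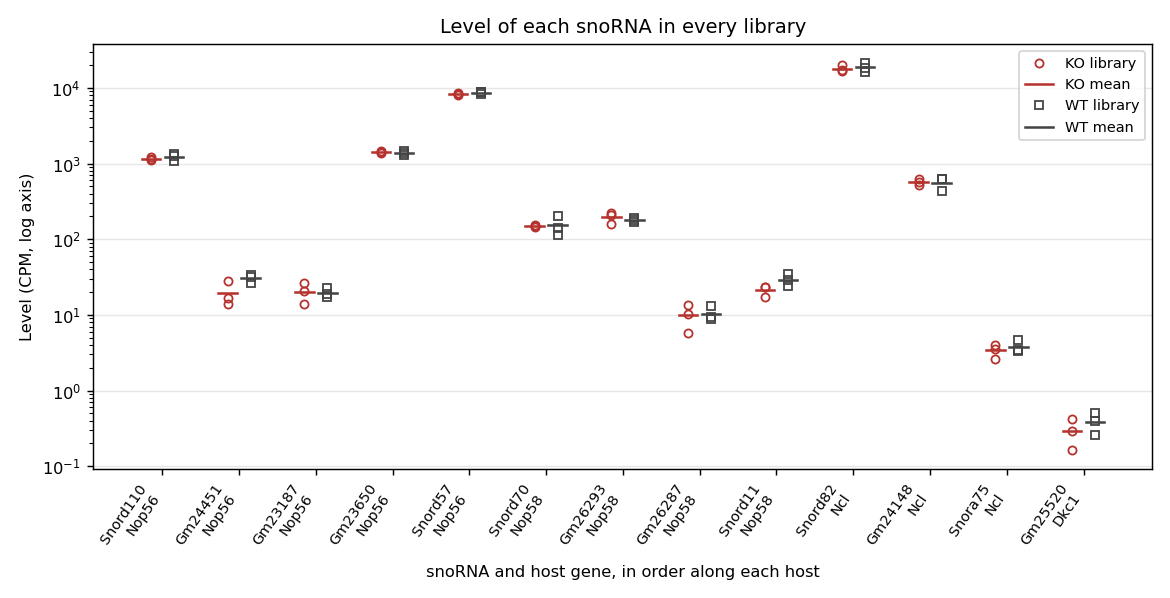
Level of each of the 13 snoRNAs in every library, in CPM on a log axis, with circles for the 3 KO and squares for the 3 WT libraries and a bar at each group's mean. Levels differ far more between snoRNAs of 1 host than between the genotypes, and Snord82 and Snord57 stand highest.

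Nop56, the C/D core protein gene with the most members, gave a steep range of levels. Snord57 had 8208, 8137 and 8539 CPM in KO replicates 1 to 3 and 8788, 8948 and 8315 CPM in WT replicates 1 to 3. Its highest library was 1.10-fold its lowest, the smallest such ratio among the 13. Gm23650 had 1466, 1423 and 1393 CPM in KO libraries against 1469, 1283 and 1373 CPM in WT. Snord110 had 1142, 1125 and 1215 CPM in KO libraries against 1357, 1088 and 1240 CPM in WT. The genotypes overlapped for each of these 3. Per nucleotide Gm23650 stood above Snord110 in 6 of 6 libraries, although the ranges of the 2 overlapped across libraries.

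The other Nop56 members were rare beside them. Gm23187 had 20.5, 13.97 and 26.2 CPM in KO libraries against 22.6, 17.4 and 19.1 CPM in WT. Gm24451, the H/ACA-size member of the gene, had 28.0, 14.01 and 16.9 CPM in KO libraries against 32.1, 26.3 and 33.9 CPM in WT. KO replicates 2 and 3 of Gm24451 lay below every WT library, while KO replicate 1 lay within the WT range. Snord57 alone made up 75.9% ± 0.384 of the Nop56 reads in KO libraries against 76.6% ± 1.88 in WT, and Gm24451 made up 0.180% ± 0.068 and 0.272% ± 0.039 (SD, n = 3 each).

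Nop58, the other C/D core protein gene, gave lower levels and a narrower range. Snord70 had 149, 145 and 156 CPM in KO libraries against 200.7, 115 and 141 CPM in WT, so that the WT libraries were the more spread. Gm26293 had 159, 225 and 206 CPM in KO libraries against 191, 166 and 181 CPM in WT, with KO replicate 1 the lowest and KO replicate 2 the highest of all 6. Per nucleotide the ratio of Snord70 to Gm26293 ranged from 0.620 to 1.02 and was above 1 in 1 library, WT replicate 1.

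The second pair of Nop58 was less abundant in every library. Snord11 had 23.7, 17.4 and 23.4 CPM in KO libraries against 34.2, 24.0 and 28.7 CPM in WT. Gm26287 had 13.6, 5.75 and 10.1 CPM in KO libraries against 13.2, 9.25 and 8.78 CPM in WT. Per nucleotide Snord11 exceeded its partner in 6 of 6 libraries, by 1.67-fold to 3.15-fold. Snord70 and Gm26293, whose sequences place the pairing at position 519 of the 18S copy, together held most of the Nop58 reads (39.8% ± 3.19 and 51.8% ± 5.64 in the KO, 40.5% ± 4.72 and 48.9% ± 4.88 in WT, SD, n = 3 each).

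Ncl, the nucleolin gene, held the most abundant member. Snord82 had 19779, 16928 and 17243 CPM in KO libraries against 16209, 21144 and 18581 CPM in WT. It made up 96.9% ± 0.492 of the Ncl snoRNA reads in KO libraries against 97.1% ± 0.363 in WT (SD, n = 3 each). Snora75, the H/ACA-size member, had only 128, 210 and 166 reads in KO libraries against 250, 154 and 169 reads in WT, or 3.40 ± 0.71 and 3.80 ± 0.77 CPM (SD, n = 3 each). Per nucleotide the highest Ncl member, Snord82 of C/D size (262 CPM per nt), was 9660-fold above the lowest, Snora75. The other C/D-size member, Gm24148, had 7.09 CPM per nt. Among 33 hosts with at least 3 listed snoRNAs this ratio ran from 1.02 to 6.68e+05 with a median of 78.5, and Ncl ranked 3, Nop56 10 (622-fold) and Nop58 23 (17.9-fold). These ratios do not separate the sizes. Per nucleotide the lowest member was of H/ACA size in Ncl and in Nop56, while Nop58 holds only C/D-size members. In Nop56 this rests on the division by length. There the C/D-size Gm23187 had a mean of 19.95 CPM and the H/ACA-size Gm24451 25.2 CPM, and their ranges per nucleotide overlapped.

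Gm24148 of Ncl has an overlapping annotation that bears on its count. The miRNA feature mmu-mir-3535 (chromosome 1, 86351981 to 86352127, minus strand, 147 nt) contains the whole snoRNA, and the mature miR-3535 of RefSeq equals the first 26 nt of Gm24148. It is shown in RNA letters, since a short read of this stretch fits either annotation.
mmu-miR-3535: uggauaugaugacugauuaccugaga

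Gm24148 had 25402, 32111 and 27333 reads in KO libraries against 22829, 28118 and 32211 reads in WT. The miRNA feature had 29781, 31405 and 22399 reads in KO libraries against 24932, 28691 and 31609 reads in WT. Their ratio ranged from 0.820 to 1.17 and was above 1 in 3 of 6 libraries. In the other 3 the containing feature had fewer reads than the snoRNA inside it. How a read of the shared stretch was assigned is stated in neither the labels nor the tables. The sum of the pair was 1138 ± 87 CPM in KO libraries against 1135 ± 207 CPM in WT (SD, n = 3 each).

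Dkc1, the H/ACA enzyme gene, gave almost no reads. Gm25520 had 8, 22 and 14 reads in KO libraries against 27, 18 and 13 reads in WT, or 0.295 ± 0.130 and 0.386 ± 0.126 CPM (SD, n = 3 each). The genotypes overlapped, and the highest library was 3.07-fold the lowest.

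**Figure D2:**
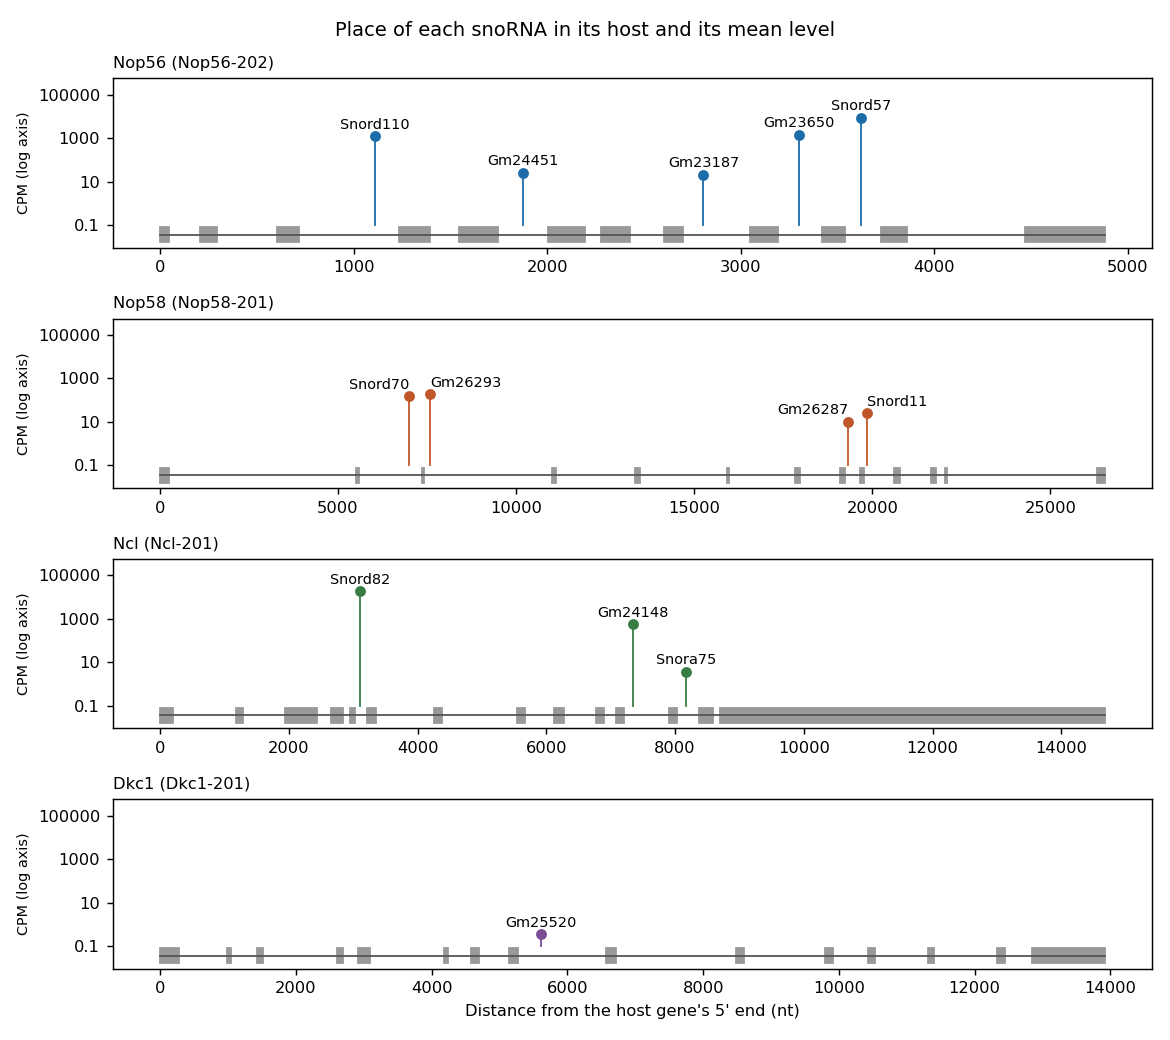
Each panel is 1 host gene, with exons of the principal transcript as grey boxes, distance from the gene's 5′ end in nt, and each snoRNA as a stem whose dot marks its mean level over 6 libraries (CPM, log axis). The highest dots are Snord82 in Ncl and Snord57 in Nop56, and Gm25520 in Dkc1 is the lowest.

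Ordered by level per nucleotide, the 13 ran Snord82 (262 CPM per nt), Snord57 (118), Gm23650 (20.0), Snord110 (17.6), Gm24148 (7.09), Gm26293 (2.24), Snord70 (1.74), Snord11 (0.300), Gm23187 (0.232), Gm24451 (0.189), Gm26287 (0.125), Snora75 (0.0271) and Gm25520 (0.00289). Neighbours overlapped across libraries for Gm23650 with Snord110, Gm26293 with Snord70, Snord11 with Gm23187, Gm23187 with Gm24451 and Gm24451 with Gm26287. The other 7 neighbouring steps did not overlap in any pair of libraries.

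The levels of the C/D-size members went with their place in the intron. Snord82, Snord57, Gm23650 and Snord110 ended 67, 68, 82 and 89 nt before the 3′ splice site, and they were the 4 highest (17.6 to 262 CPM per nt). The other 6 ended 195 nt (Gm23187) to 3385 nt (Gm26293) before it and had 0.125 to 7.09 CPM per nt. From the nearest to the farthest of these 6 the levels were 0.232, 0.125, 1.74, 7.09, 0.300 and 2.24 CPM per nt, without a steady fall. The same 4 are also the shortest, at 68 to 72 nt against 80 to 87 nt, so within these 10 the place and the length cannot be told apart. A distance of this order is known as favourable for making C/D snoRNAs from introns, and its part in these levels was not tested. The limit of 100 nt was set after these values were seen.

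The same division was made for 97 other listed C/D-size snoRNAs in introns of 53 protein-coding hosts. The 44 within 100 nt of the 3′ splice site had a median of 5.10 CPM per nt, and the 53 beyond it 0.237 CPM per nt. The ratio of the medians was 21.5, ranged from 18.8 to 22.4 over the 6 libraries, and fell to 5.21 with a limit of 80 nt and to 3.02 without features that belong to a group of near-identical or overlapping features. Both groups spread widely, from 0.00276 to 787 and from 3.36e-05 to 673 CPM per nt. Among those up to 75 nt long the medians were 11.1 (n = 22) and 3.25 CPM per nt (n = 16), and among longer ones 4.44 (n = 22) and 0.236 CPM per nt (n = 37). Snord82, Snord57, Gm23650 and Snord110 were thus all above the median of their class. Of the 6 distant members Gm23187 and Gm26287 were below the median of the distant class, and without those grouped features, where that median was 1.70 CPM per nt (n = 46), Snord11 was below it too. Only features with a read are listed, so silent snoRNAs are not in these medians.

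**Figure D3:**
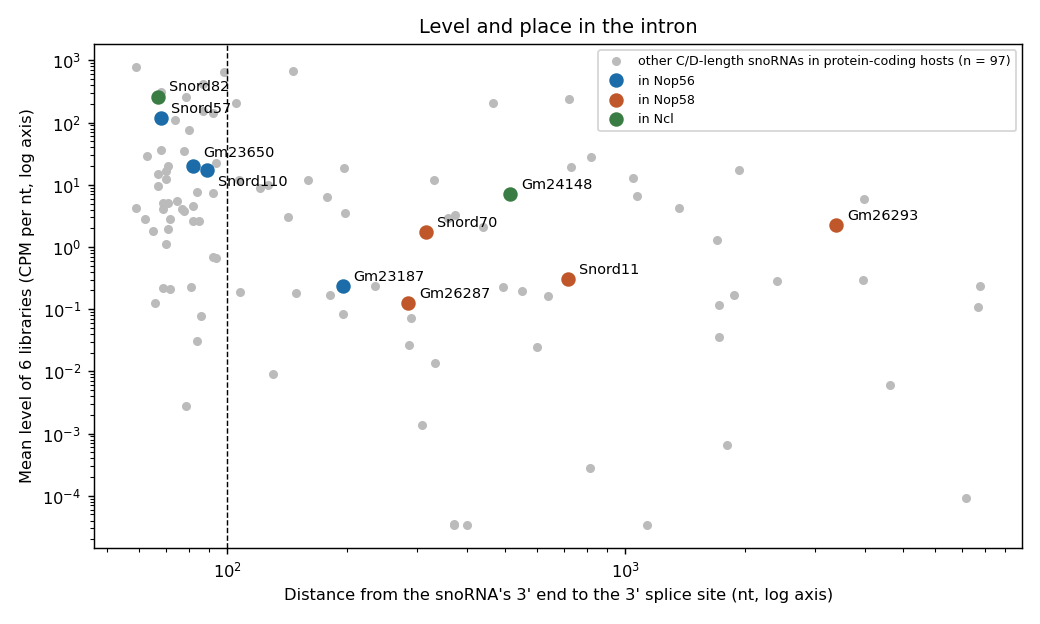
Distance from each C/D-size snoRNA's 3′ end to the 3′ splice site (nt, log axis) against its mean level over 6 libraries (CPM per nt, log axis), with members coloured by host and 97 other snoRNAs in grey; the dashed line marks 100 nt. The 4 members left of the line lie above the 6 right of it, while the grey points overlap widely.

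The comparison of the genotypes asks whether snoRNAs outside the mutated locus change. No difference between KO and WT was called for any of the 13 by edgeR's quasi-likelihood test, with adjusted p-values (Benjamini-Hochberg, over 624 tested features) of 0.730 and higher, where 1 of 624 features (0.16%) was called. The feature called by edgeR was DQ267100 of the Dlk1-Gtl2 locus (edgeR adjusted p = 0.024). None of the 13 had an unadjusted p under 0.05 (6.41% of all tested), and DESeq2, which called 1 of 622 features (0.161%), called none of them either, with an adjusted p of 0.754 and higher and none under 0.05 unadjusted. The estimates were higher in the KO libraries for 6 and lower for 7 members, against 255 and 369 of all tested features. The median log2 fold change was 0.00 for the members and -0.08 for all tested features. With RLE size factors the median of all features was 0.02, so signs of values within about 0.1 of 0 depend on the scaling.

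The intervals set how large a change could have been missed. For Snord57 the log2 fold change was 0.00 (SE 0.08, 95% interval -0.18 to 0.18). It was 0.02 (SE 0.13, -0.30 to 0.33) for Snord82, -0.02 (SE 0.12, -0.30 to 0.26) for Snord110 and 0.12 (SE 0.11, -0.14 to 0.39) for Gm23650. The intervals of these 4 abundant snoRNAs thus leave out a change of 1 on the log2 scale. Among all members only those of Gm24451 (-1.34 to 0.19) and Gm25520 (-1.35 to 0.71) include -1, and none includes 1. Gm24148 had 0.10 (SE 0.19, -0.35 to 0.54), and mmu-mir-3535 had 0.05 (SE 0.20, -0.42 to 0.52). Their sum had 0.14 (SE 0.18, -0.29 to 0.56) in a separate fit in which near-identical or overlapping features were summed. That fit has its own scaling, so its value is not comparable with those of the parts.

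For Nop58 the SE ran from 0.17 for Gm26293 to 0.37 for Gm26287. Gm26293 had a log2 fold change of 0.20 (SE 0.17, -0.22 to 0.61) and Snord70 of 0.04 (SE 0.22, -0.49 to 0.58). Gm26287 had -0.01 (SE 0.37, -0.89 to 0.87). Snord11 had -0.37 (SE 0.24, -0.93 to 0.20, adjusted p = 0.733 by edgeR), which became -0.14 without WT replicate 1 and -0.17 without KO replicate 2. Snord11 was the only member whose genotypes did not overlap in CPM, which held for 15.2% of all tested features. The closest libraries, KO replicate 1 and WT replicate 2, were 23.7 and 24.0 CPM, and after TMM scaling they were 25.04 and 23.5, so that the genotypes then overlapped. Gm23187 of Nop56 had 0.09 (SE 0.27, -0.55 to 0.74).

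The 3 H/ACA-size members all had lower estimates in the KO libraries. The log2 fold change was -0.57 (SE 0.32, -1.34 to 0.19) for Gm24451, -0.10 (SE 0.28, -0.77 to 0.58) for Snora75 and -0.32 (SE 0.43, -1.35 to 0.71) for Gm25520. Of all 151 tested snoRNAs of this size 126 were lower (83.4%), with a median of -0.26, while of the 150 of C/D size 68 were lower, with a median of 0.02. The 10 C/D-size members had a median of 0.03. The sign of the 3 estimates was thus that of most snoRNAs of this size. Their library values did not all follow the class. In KO replicate 2, relative to the mean of 6 libraries, the other H/ACA-size snoRNAs had a median log2 level of -0.67. Snora75 was at 0.19 and Gm25520 at 0.38 there. Without KO replicate 1 the value of Gm25520 was 0.05 and that of Snora75 0.13, and without WT replicate 1 they were 0.02 and 0.17. The value of Gm24451 was -0.86 without KO replicate 1 (edgeR adjusted p = 0.191) and -0.32 without KO replicate 2, with a range of -0.86 to -0.32 over the 6 libraries left out in turn.

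**Figure D4:**
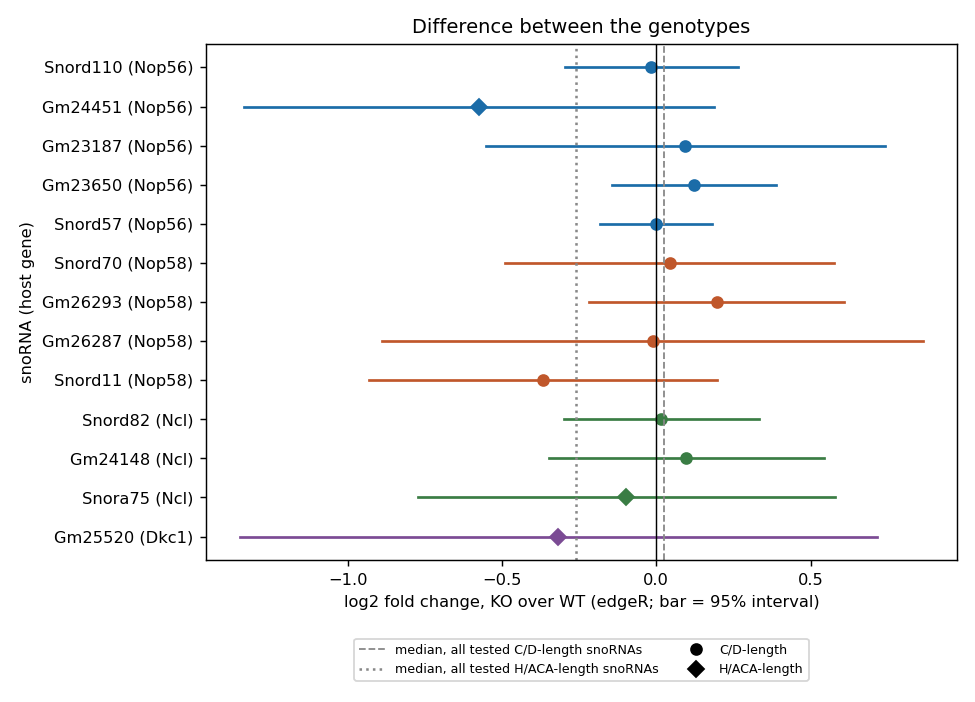
Log2 fold change of each snoRNA, KO over WT, with its 95% interval, circles for C/D size and diamonds for H/ACA size, and grey lines at the medians of all tested snoRNAs of C/D size (dashed, 0.02) and of H/ACA size (dotted, -0.26). Every interval includes 0.

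The summed level of a host's members overlapped between the genotypes for each of the 4 hosts. Nop56 summed to 10922 ± 243 CPM in KO libraries against 11337 ± 344 CPM in WT, and Nop58 to 378 ± 29 and 371 ± 63 CPM. Ncl summed to 18561 ± 1518 CPM in KO libraries against 19209 ± 2563 CPM in WT (SD, n = 3 each throughout). Ratios within Nop56 overlapped as well. Per nucleotide the ratio of Snord57 to Gm23650 was 5.65 ± 0.27 in KO libraries against 6.16 ± 0.54 in WT, and that of Snord57 to Snord110 6.75 ± 0.10 and 6.74 ± 0.90.

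Between libraries the members did not move as a block. WT replicate 1 was the highest library for 6 of the 13 but the lowest for Snord82 and Gm24148 of Ncl. KO replicate 2 was the lowest for 5. Relative to the mean of the 6 libraries, KO replicate 2 had a median log2 level of -0.67 over the other 148 tested H/ACA-size snoRNAs. Gm24451 was low there too (-0.77), but Snora75 (0.19) and Gm25520 (0.38) were not. Low values of KO replicate 2 among C/D-size members were those of Gm26287 (-0.76), Snord11 (-0.50) and Gm23187 (-0.49), while Gm26293 was at 0.27. The part of these libraries in the genotype differences was not tested.

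**Figure D5:**
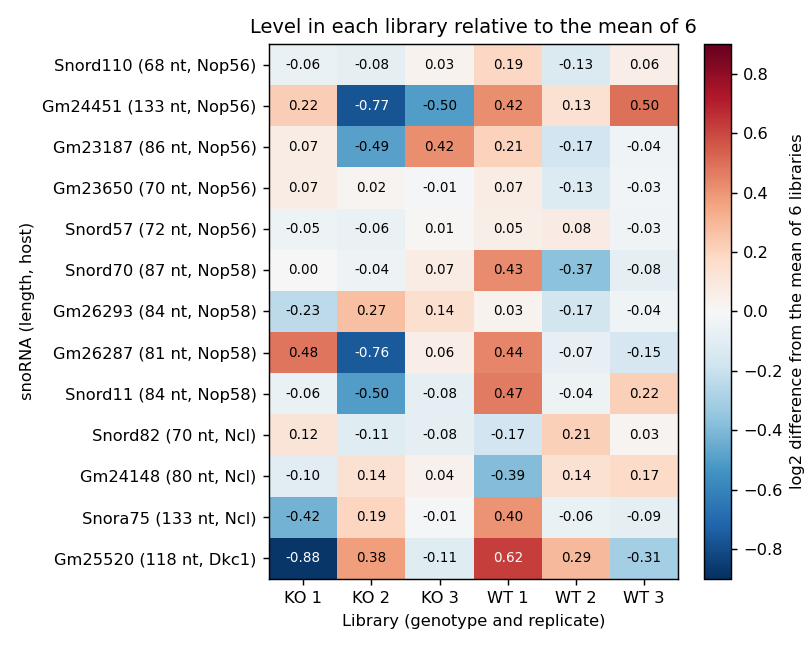
Log2 level of each snoRNA in each library minus its mean over the 6 libraries, from blue (low) to red (high), with the values printed. Snord57 runs from -0.06 to 0.08, while Gm24451, Gm26287 and Gm25520 reach -0.77, -0.76 and -0.88.

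snoRNAs in related hosts gave the setting for these values. The list of other genes of nucleolar or ribosome synthesis proteins was chosen by name and is not complete. It leaves out Nop53, Ppan and Tsr1, for example, which also hold listed snoRNAs. It matched 6 snoRNAs, in Gnl3 and Wdr43, all of C/D size and all tested. None was called by edgeR or had an unadjusted p under 0.05, 5 estimates were higher and 1 was lower, with a median of 0.04. Snord19 of Gnl3 (nucleostemin) had 1889 ± 231 CPM in KO libraries against 2365 ± 254 CPM in WT (log2 fold change -0.26, SE 0.14), and Snord53 of Wdr43 had 905 ± 84 and 926 ± 77 CPM (SD, n = 3 each). Of 14 listed snoRNAs in translation factor genes 13 were tested, 5 higher and 8 lower, with a median of -0.16, none called by edgeR and 3 with an unadjusted p under 0.05. All 8 lower ones were of H/ACA size. Of the 5 higher ones Gm24616 was of H/ACA size, and Gm26457, Snord37, Snord2 and Snord66 were of C/D size. The lists thus differ in their mix of sizes, and their medians are not comparable. Snord2 of Eif4a2 had 48387 ± 3524 CPM in KO libraries against 41434 ± 2357 CPM in WT (edgeR adjusted p = 0.542, log2 fold change 0.29, SE 0.07). With 13, 6 and 13 tested features, these counts are descriptions, and nothing is claimed as particular to a list.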

How the data were processed

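Libraries came from Trizol-extracted RNA and an NEB small RNA kit, with gel selection of PCR products of snoRNA size before NovaSeq sequencing, per the labels' protocols, so RNAs outside that size are under-represented. Per the submitters' processing notes, Trimmomatic 0.38, Bowtie2 2.3.4.1 and GRCm38 were used. Not given in the sources used here are the counting tool, its annotation, the strand setting, and how reads with several matches were treated. The deposited values are raw read counts per feature, 1 table per library, listing features with at least 1 read, and features absent from a table were taken as 0 there.

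Features were matched by position to GENCODE M21 (1822 of 1823). Counts were tested with edgeR 4.0.16 in R 4.3.3 (TMM, filterByExpr at its defaults, quasi-likelihood test, KO against WT, two-sided, Benjamini-Hochberg over all 624 tested features, threshold 0.05). The SE is the log2 fold change over the square root of F and is approximate, as is the 95% interval made from it. DESeq2 1.42.0 was an alternative, with other scalings, filters, a replicate block, each library left out and copies summed. Introns are those of the principal transcript. The procedure was tested on simulated counts of 624 features, where it called 34.3% of 2-fold and 85.9% of 4-fold changes. Of its calls 4.03% were false. Named are all 13 members, and for the most abundant member of each host the 2 tested features most like it, of which 1 is not reported here. The members, lists and rules were chosen with earlier results of these data known. Depth was 45398303 to 53299322 reads, and without molecular identifiers a read need not be a separate molecule.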

Additional observations from a re-analysis of the deposited data

How the results depend on the processing

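No alternative called any of the 13 snoRNAs, and the lowest edgeR or DESeq2 adjusted p of a member under any of them was 0.191. Of 168 member log2 fold changes under alternatives, 129 kept their direction and 39 changed sign, the largest of these 0.322 in size. Over all features 1 was called. Without the low-count filter 13 were called, and with 1 library left out 0 to 1, with 0 without KO replicate 3, WT replicate 1, WT replicate 2 or WT replicate 3. With a replicate block, which treats equal replicate numbers as pairs, 0 features and 0 members were called. Across features, log2 levels taken relative to the mean of their genotype gave same-numbered libraries a Pearson r of -0.13, 0.40 and -0.36. Differently numbered libraries had -0.46 to 0.59. With 3 libraries per genotype such differences from the mean are not independent, so whether equal numbers mark pairs is not settled.

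The median of the C/D-size members, 0.03, was 0.136 with RLE size factors and with DESeq2, and 0.0761 to 0.205 with 1 library left out. That of the H/ACA-size members, -0.32, was -0.406 to 0.0488 with 1 left out. The summed Nop56 level, -0.05 on the log2 scale, was 0.0123 on TMM library sizes. The causes were not tested. With RLE size factors signs turned for Snord110 (0.0899), Snord57 (0.106), Gm26287 (0.0880) and Snora75 (0.0132), and with DESeq2 for the same 4 (0.0899, 0.106, 0.0879 and 0.0128). Snord110, Snord57 and Gm26287 turned without a filter (0.0401, 0.0557 and 0.0424), with at least 50 counts in 3 libraries (0.0578, 0.0702 and 0.0543) and with copies summed (0.0470, 0.0634 and 0.0521). By library size alone Snord70 was at -0.0226 and Snord82 at -0.0521. With 1 library left out the log2 fold change ran from -0.0183 to 0.149 for Snord110, 0.0572 to 0.1001 for Snord57, -0.0491 to 0.370 for Gm23187, -0.0432 to 0.379 for Snord70, -0.271 to 0.322 for Gm26287, -0.183 to 0.172 for Snora75 and -0.622 to 0.0488 for Gm25520. It kept its sign for Gm24451 (-0.862 to -0.322), Snord11 (-0.410 to -0.145), Gm23650 (0.153 to 0.261), Gm24148 (0.0279 to 0.295), Gm26293 (0.147 to 0.405) and Snord82 (0.0108 to 0.194). The distance limits of 80 and 120 nt and the omission of copies in the intron comparison were chosen after seeing the data. Depth limits Gm25520 most, with 8 to 27 reads a library.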

Other observations

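The features whose level across the 6 libraries was most like that of each host's most abundant member, among 204 tested features with a mean of at least 10 CPM outside copy groups, are given as a description (Pearson r of log2 CPM, n = 6 libraries, chosen as the highest, so no p is given). For Snord57 they were Rn7sk (r = 0.985) and mt-Rnr2 (r = 0.901), with Snord57 itself varying by only 0.137 on the log2 scale. For Gm26293 they were the snoRNAs Gm26457 of Eef1b2 (r = 0.992) and Gm22879 of Rpl7a (r = 0.990), and r was 0.973 and 0.977 without the 2 libraries farthest from the median of Gm26293. For Snord82 Snord68 of Rpl13 is given (r = 0.746), and r fell to 0.581 without its 2 farthest libraries. For Gm25520 they were Snord66 of Eif4g1 (r = 0.967) and Snord12 of Zfas1 (r = 0.890), the latter at 0.403 without the 2 farthest libraries. None of the features named lies in Nop56, Nop58, Ncl or Dkc1.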
